A study of Mus musculus with 2 samples.

Results

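The respiratory chain genes of mouse skin were examined as 1 group: the 95 nuclear genes whose symbols begin with Ndufa, Ndufb, Ndufc, Ndufs, Ndufv, Uqcr, Atp5, Cox4i, Cox5, Cox6, Cox7 or Cox8, or that are Sdha, Sdhb, Sdhc, Sdhd or Cyc1, and the 13 genes of the mitochondrial genome, whose symbols begin with mt-. These 108 members were taken by symbol from the 32285 genes of the count matrix, under a rule chosen with earlier results of these data known. The skin came from C57BL/6 mice of 8 weeks, either controls or animals given the anti-Ly6G antibody clone 1A8 for 2 days in a row at steady state, which depletes neutrophils. Both conditions were dissociated with Liberase and DNAseII, marked with hashtag antibodies and pooled into 1 RNA library, with a hashtag library beside it. Barcodes were not tied to a condition here, so control and depleted skin were not compared. There was 1 library and no replicate, so every comparison is between groups of barcodes within that library, without a test, and the intervals given are 95% exact intervals that cover counting error only.

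Oxidative phosphorylation runs through a series of electron-carrying complexes and the ATP synthase, complex V, all in the inner mitochondrial membrane. Complex II is built from nuclear genes alone, whereas complexes I, III, IV and V combine nuclear subunits with subunits read from the mitochondrial genome, so both genomes have to supply parts of the same machines. Skeletal muscle is rich in these complexes and carries its own heart and muscle forms of several complex IV subunits, while keratinocytes, fibroblasts and leukocytes of the skin mostly use the widely expressed forms.

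The members divide by role into 37 nuclear genes counted as subunits of complex I, 8 Ndufaf genes, whose products assemble complex I and which the symbol rule takes in, 4 of complex II, 9 of complex III, 20 of complex IV and 17 of complex V. The mitochondrial members are 7 of complex I, 1 of complex III, 3 of complex IV and 2 of complex V. Ndufa4 and Ndufa4l2 carry a complex I name and were counted with complex IV, where NDUFA4 sits. Ndufb1-ps was counted with complex I by its symbol, though GENCODE M21 lists it as a long noncoding RNA and not as protein coding. Of the members, 92 nuclear and all 13 mitochondrial genes had at least 50 UMIs (unique molecular identifiers, 1 per captured RNA molecule) over the barcodes analysed, as did 14910 genes in all. Cox8c was at 0 in every barcode, Cox7b2 had 1 UMI in the classes described and Cox4i2 had 31.

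Barcodes with fewer than 200 genes or over 20% mt- UMIs were removed, which left 8127 of 8367 barcodes with a median of 9708 UMIs and 2920 genes. A barcode was placed in a class when it held a UMI for at least 50% of the markers of that cell type, and 6410 barcodes fell in 11 classes of 10 or more: 3505 fibroblast, 972 basal and 247 suprabasal keratinocyte, 989 macrophage, 139 monocyte, 119 dendritic, 32 neutrophil, 267 lymphoid, 22 mast, 102 muscle fibre and 16 pericyte or smooth muscle barcodes. These names stand for the marker list passed and no more. No marker is a member. Of the 237 barcodes that passed the muscle list, 135 also passed a list of another lineage and were left out, and none of the 237 barcodes removed for mt- UMIs passed it. The muscle fibre barcodes held Acta1 (skeletal actin), a marker of the muscle list, at 59447 CPM (a gene's UMIs scaled to a fixed total of UMIs in the class). That list includes the fast fibre genes Tnnt3, Tnni2 and Myh4 and no gene of the slow fibre list, so passing it favours fast fibre genes. Of the fast fibre genes outside it, Myh1 had 389 UMIs and Myh2 59. Of the slow fibre genes, Tnnt1 had 15 UMIs, Tnni1 2 and Myh7, Myl2 and Tnnc1 none. Of the satellite cell list, Des (desmin, also made by mature fibres) had 2116 UMIs, Myod1 24, Cdh15 3, Pax7 1 and Myf5 and Chodl none.

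The muscle fibre class was a mixture. Muscle markers made up 10% or more of the UMIs in 92 of the 102 barcodes, between 1% and 10% in 2, and under 1% in 8. The 8 had a median of 3802 UMIs and held 1429 of the 2950 mt- UMIs and 1323 of the 1620 Malat1 UMIs of the class. Their mt- share of respiratory chain UMIs was 78.9%, unlike that of the 92. The main muscle fibre results are therefore given for all 102 barcodes and again for the 92, a split chosen after the values were seen. For the 90 nuclear members with a UMI in the 92, the ratio to other barcodes was between 0.786 (Cox6a1) and 1.08 times that in the 102, so their single values are given for the 102. Ndufa4l2 and Cox6b2 had no UMI in the 92. In the 92, summed fibroblast markers stood at 107 CPM, against 25915 CPM in fibroblast barcodes, and 7 of 8 of them had a UMI, all but Pdgfra.

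Promoter windows of 5 members are shown because they belong to the complex IV subunits whose muscle and general forms were used differently in muscle fibre and other barcodes: Cox7a1 and Cox8b are muscle forms, and Cox7a2, Cox8a and Cox6a1 are general forms. Each is the 250 bases before the RefSeq start (GRCm38.p6), 5′ to 3′ on the gene's strand, at chr7:30183921-30184170 (+) for Cox7a1, chr7:140900447-140900696 (-) for Cox8b, chr9:79759854-79760103 (-) for Cox7a2, chr19:7217617-7217866 (-) for Cox8a and chr5:115348959-115349208 (-) for Cox6a1. Capitals mark matches on either strand to the motifs searched: the E-box CANNTG, the NRF1 core GCGCANGCG, the ETS site CCGGAAG, the ERR site AAGGTCA and the MEF2 site.
Cox7a1: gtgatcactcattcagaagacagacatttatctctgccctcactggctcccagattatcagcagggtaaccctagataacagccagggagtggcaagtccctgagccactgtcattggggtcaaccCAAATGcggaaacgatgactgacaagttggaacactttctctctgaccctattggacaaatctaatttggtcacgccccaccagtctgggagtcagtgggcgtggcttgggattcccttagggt
Cox8b: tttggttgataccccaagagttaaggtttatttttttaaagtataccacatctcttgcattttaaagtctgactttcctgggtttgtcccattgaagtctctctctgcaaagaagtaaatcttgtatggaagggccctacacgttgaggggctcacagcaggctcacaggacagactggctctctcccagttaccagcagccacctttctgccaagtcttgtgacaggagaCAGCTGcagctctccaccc
Cox7a2: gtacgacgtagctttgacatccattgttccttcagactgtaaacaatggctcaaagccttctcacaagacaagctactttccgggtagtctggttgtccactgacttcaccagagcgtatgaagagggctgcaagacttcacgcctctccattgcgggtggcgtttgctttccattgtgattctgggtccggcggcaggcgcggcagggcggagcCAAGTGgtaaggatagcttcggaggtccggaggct
Cox8a: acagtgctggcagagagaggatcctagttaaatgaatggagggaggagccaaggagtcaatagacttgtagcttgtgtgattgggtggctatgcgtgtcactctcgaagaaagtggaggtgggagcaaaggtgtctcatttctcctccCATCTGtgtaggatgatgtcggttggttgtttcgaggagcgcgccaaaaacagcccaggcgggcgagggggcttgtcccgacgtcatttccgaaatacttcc
Cox6a1: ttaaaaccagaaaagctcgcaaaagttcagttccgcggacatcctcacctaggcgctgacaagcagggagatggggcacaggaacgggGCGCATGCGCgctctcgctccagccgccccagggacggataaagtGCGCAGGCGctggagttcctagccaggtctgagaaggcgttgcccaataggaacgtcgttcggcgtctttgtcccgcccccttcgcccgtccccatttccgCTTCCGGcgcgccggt
The windows of Cox7a1 and Cox8b had 4 and 1 CpG pairs, and those of the general forms had 14 for Cox7a2, 11 for Cox8a and 26 for Cox6a1. Cox6a1 held 3 NRF1 matches, of which some overlap, and 1 ETS match, whereas each of the other 4 held 1 E-box and none of the remaining motifs. Cox6a2, a muscle form too, is not among the windows shown.

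Promoter windows were found for 77 of the 95 nuclear members, and their median CpG count was 15, against 6 over 27025 promoters. The NRF1 letters were in 18.2% of the members' windows (14 of 77) and in 5.33% of all promoters of the same length. The ETS letters were in 16.9% (13 of 77), against 7.05% of all promoters. The ERR letters were in 6.49% against 4.05%, the E-box in 64.9% against 66.0%, and the MEF2 letters in 0 of 77 against 3.01%. A match is a string of letters in the window and no measure of binding.

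Muscle fibre barcodes gave far more of their RNA to nuclear respiratory chain genes than any other class, and less to the mitochondrial ones. Nuclear members took 9.75% of UMIs (9.67 to 9.83) in the 102 barcodes, against 1.56% in the 6308 other gated barcodes. The mt- members took 0.522% (0.504 to 0.542), against 1.62%. The mt- share of all respiratory chain UMIs was thus 5.09% (4.91 to 5.27) in muscle fibre barcodes and 51.0% (50.9 to 51.0) in the others. In the 92 barcodes with 10% or more marker UMIs the nuclear part was 10.4%, the mt- part 0.288% and the mt- share 2.69% (2.55 to 2.82).

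Single barcodes show the same split. Among the 92, the nuclear part ran from 4.75% to 16.4% with a median of 10.1%, and 83 of the 92 lay above the highest other gated barcode, at 7.56%. Only 4 of the 6308 others reached the lowest of the 92. The mt- part had a median of 0.0176% and a highest value of 12.7%, and 38 of the 92 barcodes held no mt- UMI at all. Most of the mt- UMIs were in few barcodes: the 11 with over 1% mt- UMIs carried 77.3% of them, 1163 of 1505. These 11 had a median nuclear part of 10.05%, much like the 10.1% of the other 81, and a lower depth, with a median of 2191 UMIs against 4747. Without them the mt- share was 0.667%.

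**Figure D1:**
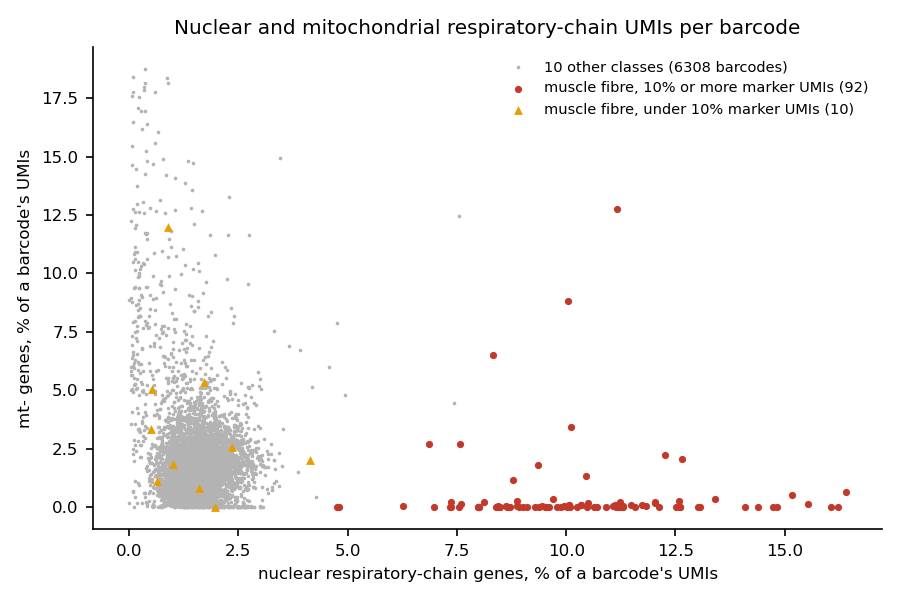
Each point is 1 barcode, with the share of its UMIs from nuclear respiratory chain genes on the x axis and from mt- genes on the y axis, both in percent. Muscle fibre barcodes with 10% or more marker UMIs (red) spread from 4.75% to 16.4% along the x axis, mostly at the bottom, while those with under 10% (orange triangles) lie among the 6308 other barcodes (grey).

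The classes other than muscle had pooled mt- shares between 44.1% and 65.9%. Fibroblast barcodes were lowest at 44.1% (44.0 to 44.2). Dendritic barcodes followed at 51.3% and neutrophil barcodes at 51.5% (49.4 to 53.6), whose intervals overlap. Suprabasal keratinocyte barcodes at 53.5% and monocyte barcodes at 53.6% were not distinguishable by their intervals. Lymphoid barcodes stood at 57.0%, macrophage barcodes at 57.4%, pericyte or smooth muscle barcodes at 58.0% (56.8 to 59.2) and basal keratinocyte barcodes at 58.2%. Mast barcodes were highest at 65.9% (63.4 to 68.4), on 22 barcodes of shallow depth, with a median of 1686.5 UMIs. Below 2000 UMIs the share was higher still in fibroblast (72.5%), macrophage (85.4%) and basal keratinocyte barcodes (94.7%). The spread over barcodes was far wider than these intervals, with quartiles of 29.2% and 55.3% in fibroblast barcodes and 45.8% and 68.4% in macrophage barcodes, so the classes overlap barcode by barcode.

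In the neutrophil class the pooled UMIs and the barcodes differed. Its pooled mt- share of 51.5% came from a minority of its 32 barcodes, since the median barcode was at 16.8% and the median mt- part was 0.150% of UMIs. In 18 of the 32 the mt- part was at or under 0.2%, a limit chosen after the values were seen. Neutrophils are known as mainly glycolytic cells with few mitochondria. The 18 and the 14 others had median depths of 2382.5 and 3057.5 UMIs.

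**Figure D2:**
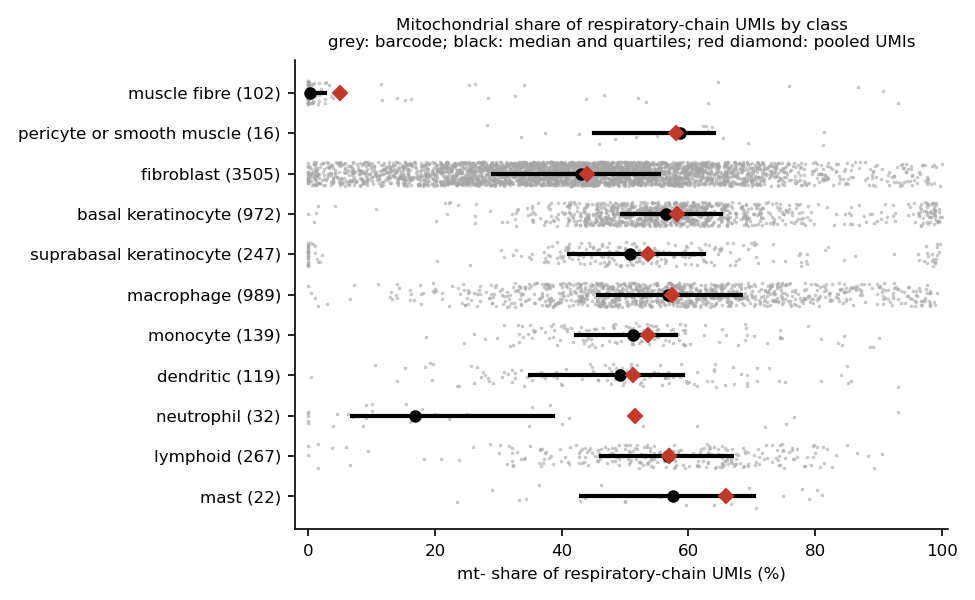
The x axis gives the mt- share of respiratory chain UMIs in percent, and each row is a class with its number of barcodes. Grey points are barcodes, black marks the median and quartiles, and the red diamond is the share of the pooled UMIs, which reaches 5.09% in muscle fibre barcodes and lies at 44.1% or more in every other class.

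The mt- share moved with depth within classes. In fibroblast barcodes it was 72.5% below 2000 UMIs, 60.9% from 2000 to 5000, 50.1% from 5000 to 10000, 41.5% from 10000 to 20000 and 38.3% above. Macrophage barcodes went from 85.4% to 50.3% over the same bins, and basal keratinocyte barcodes from 94.7% to 52.5%. Between 5000 and 10000 UMIs the share was 4.61% in 27 muscle fibre barcodes, 50.1% in fibroblast, 52.9% in monocyte, 53.8% in dendritic, 57.6% in lymphoid, 58.4% in basal keratinocyte, 60.6% in suprabasal keratinocyte and 61.8% in macrophage barcodes. Thinned to 500 UMIs each, 66.7% of muscle fibre barcodes (68 of 102) held no mt- UMI, against 4.95% of the other gated barcodes, and before thinning 39 of 102 and 48 of 6308 held none.

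**Figure D3:**
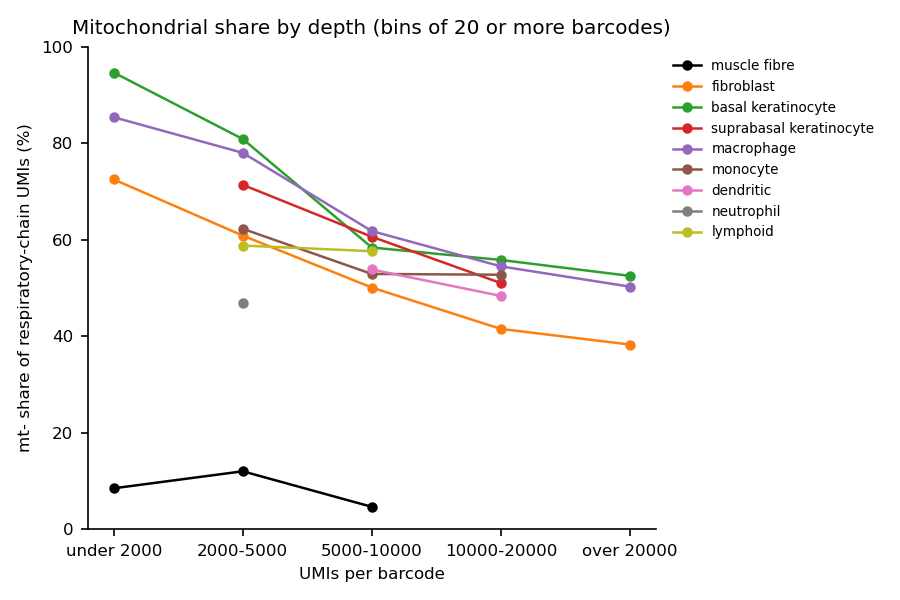
The x axis bins barcodes by their UMIs and the y axis gives the mt- share of pooled respiratory chain UMIs in percent, 1 line per class, for bins of 20 or more barcodes. Every other class lies at 38.3% or more at each depth shown, and muscle fibre barcodes (black) lie between 4.61% and 11.99%.

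The gap was present in each complex that both genomes build. In muscle fibre barcodes the mt- share of complex I UMIs was 3.36%, against 39.4% in the other gated barcodes. It was 4.60% against 49.8% for complex III, 9.52% against 66.4% for complex IV and 3.03% against 38.7% for complex V. In the 92 barcodes it was 1.84%, 2.99%, 4.78% and 1.64%. Summed nuclear CPM of a complex was 6.39-fold higher for complex I, 6.36-fold for complex III, 5.99-fold for complex IV, 6.40-fold for complex V and 5.07-fold for the wholly nuclear complex II, so the nuclear parts of the 5 complexes were higher by similar amounts. In the 92 these ratios lay between 5.38-fold (complex II) and 6.85-fold (complex V).

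Gene by gene, 85 of the 92 nuclear members measured were over 2-fold higher in muscle fibre barcodes than in all other gated barcodes, where 11.6% of all 14910 genes were. Their median log2 ratio was 2.58, against -1.25 for all genes. Of the nuclear members 3 were over 2-fold lower, Ndufa4l2, Cox6a1 and Cox8a, and 55.5% of all genes were. None of the 13 mt- members was over 2-fold higher and 12 were over 2-fold lower, with a median log2 ratio of -1.59. That is 0.34 below the median gene on the log2 scale. Set against the median gene rather than the total, 88 nuclear members were over 2-fold higher, 2 were over 2-fold lower, and 0 of the 13 mt- members were over 2-fold lower. In the 92 barcodes, 85 nuclear members were higher (11% of all genes) and 4 lower (59.8%), the mt- median was -2.34 and that of all genes -1.55. Against fibroblast barcodes alone, 85 nuclear members were higher (21% of all genes) and 3 lower (46.5%), and 8 of 13 mt- members were over 2-fold lower.

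**Figure D4:**
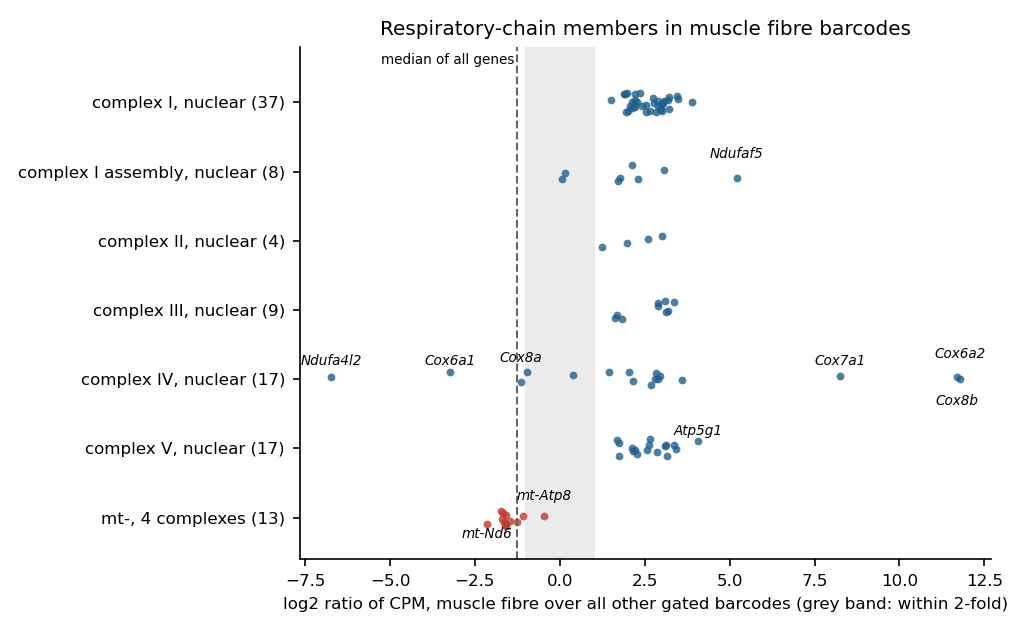
Each point is a member with at least 50 UMIs, with its log2 ratio of CPM in muscle fibre over all other gated barcodes on the x axis and its complex on the y axis. Blue nuclear members of complexes I, II, III and V all lie to the right of the grey 2-fold band, complex IV spreads from -6.74 (Ndufa4l2) to 11.78 (Cox6a2), and the red mt- members lie near the dashed median of all genes at -1.25.

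Complex I, which takes electrons from NADH, had all 37 nuclear genes counted as its subunits over 2-fold higher in muscle fibre barcodes, with log2 ratios between 1.49 (Ndufs1) and 3.88 (Ndufc1). Of the 3 with most UMIs, Ndufa13 was at 1107 CPM against 289, 3.84-fold (3.54 to 4.15). Ndufb11 was 4.59-fold (4.22 to 4.99) and Ndufa2 4.37-fold higher. Of the Ndufaf assembly genes 6 of 8 were over 2-fold higher. Ndufaf5, an assembly factor that modifies a core subunit, stood out at 283 CPM against 7.71, 36.7-fold (30.6 to 44.0), and was seen in 62 of 102 muscle fibre and 291 of 3505 fibroblast barcodes. Ndufaf2 was at 35.4 CPM against 34.8 and Ndufaf7 at 17.7 against 16.7, with intervals that include no difference.

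Complex II, succinate dehydrogenase, had all 4 subunit genes over 2-fold higher. Sdhb, the iron-sulphur subunit, was 8.01-fold (7.13 to 8.96) higher, while Sdha, the flavoprotein that oxidises succinate, was 2.37-fold (1.91 to 2.90) higher, so the ratios of its subunits differed by more than their intervals. Sdhd, a membrane anchor, was between them at 3.95-fold.

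All 9 nuclear genes of complex III, the cytochrome bc1 complex, were over 2-fold higher. Uqcrq reached 1886 CPM against 182, 10.4-fold (9.72 to 11.0), and Uqcrb 2132 CPM against 242, 8.81-fold (8.30 to 9.34). Uqcrh had a smaller ratio, 3.24-fold (3.04 to 3.45), and the core subunits Uqcrc1 and Uqcrc2 were 3.53-fold and 3.07-fold higher. Its 1 mitochondrial member, mt-Cytb (chrM:14145-15288), the cytochrome b subunit, went the other way at 494 CPM against 1599, 3.24-fold lower (2.88 to 3.65), and 4.72-fold (4.07 to 5.50) lower in the 92.

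Complex V, the ATP synthase, had all 17 nuclear genes over 2-fold higher. Atp5e was at 4238 CPM against 492, 8.62-fold (8.27 to 8.99). Atp5l was 4.82-fold and Atp5h 3.37-fold higher. The membrane ring of the enzyme is made of subunit c, which several genes encode as the same mature protein, and these genes were not used alike. Atp5g1 was 16.9-fold higher (16.1 to 17.8) and made up 63.2% of subunit c UMIs in muscle fibre barcodes against 26.7% in the others, where Atp5g2 held 52.2%. Such shares compare UMIs of different transcripts without a correction for length.

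Complex IV, cytochrome c oxidase, was the complex in which members differed most. Of its 17 measured nuclear genes 12 were over 2-fold higher and 3 over 2-fold lower. The common subunits Cox6c, at 3236 CPM against 468, and Cox5a, at 2671 against 220, were 6.91-fold and 12.2-fold higher, and Cox4i1 was 2.71-fold (2.56 to 2.86) higher. The largest ratios belonged to the muscle forms of subunits VIa, VIIa and VIII.

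Cox6a2, the heart and muscle form of subunit VIa, was at 3868 CPM in muscle fibre barcodes against 1.09 CPM in the others. It was seen in 95 of the 102 muscle fibre barcodes and in all 92 with 10% or more marker UMIs, where it ran from 4.71 to 85.7 UMIs per 10000 with a median of 41.0. It was seen in 15 of 3505 fibroblast and 9 of 972 basal keratinocyte barcodes, at median depths of 11091 and 10246.5 UMIs against 4311 in muscle fibre barcodes. It was also seen in 24 of 989 macrophage and 4 of 119 dendritic barcodes. It made up 99.5% (99.1 to 99.7) of Cox6a UMIs in muscle fibre barcodes and 0.566% in the others. The general form Cox6a1 had 11 UMIs in muscle fibre barcodes, 19.5 CPM against 192, 9.83-fold lower (5.49 to 19.7). The Cox6a UMIs of muscle fibre barcodes were thus almost wholly Cox6a2, and protein was not measured.

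Cox8b, the muscle form of subunit VIII, was at 1893 CPM against 0.568 and was seen in 93 of 102 muscle fibre, 17 of 3505 fibroblast and 8 of 989 macrophage barcodes. It took 89.7% (87.8 to 91.3) of Cox8 UMIs in muscle fibre barcodes and 0.117% in the others. Cox8a, the general form, was 2.22-fold lower (1.86 to 2.68) at 218 CPM against 484, yet relative to the median gene it was 0.11 higher on the log2 scale. Cox8a was still seen in 58 of the 102 barcodes.

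Cox7a1, the muscle form of subunit VIIa, was at 836 CPM against 2.74, 306-fold higher (257 to 364). It was seen in 87 of 102 muscle fibre, 113 of 3505 fibroblast and 3 of 16 pericyte or smooth muscle barcodes. Here the general form was not displaced: Cox7a2 was also 4.13-fold higher (3.80 to 4.48), at 1043 CPM against 253. Of the UMIs of Cox7a1, Cox7a2 and Cox7a2l, the last a factor of supercomplex assembly, Cox7a1 took 35.5% (32.9 to 38.1) and Cox7a2 44.3%. The share held by the muscle form was thus largest for Cox6a and smallest for Cox7a.

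**Figure D5:**
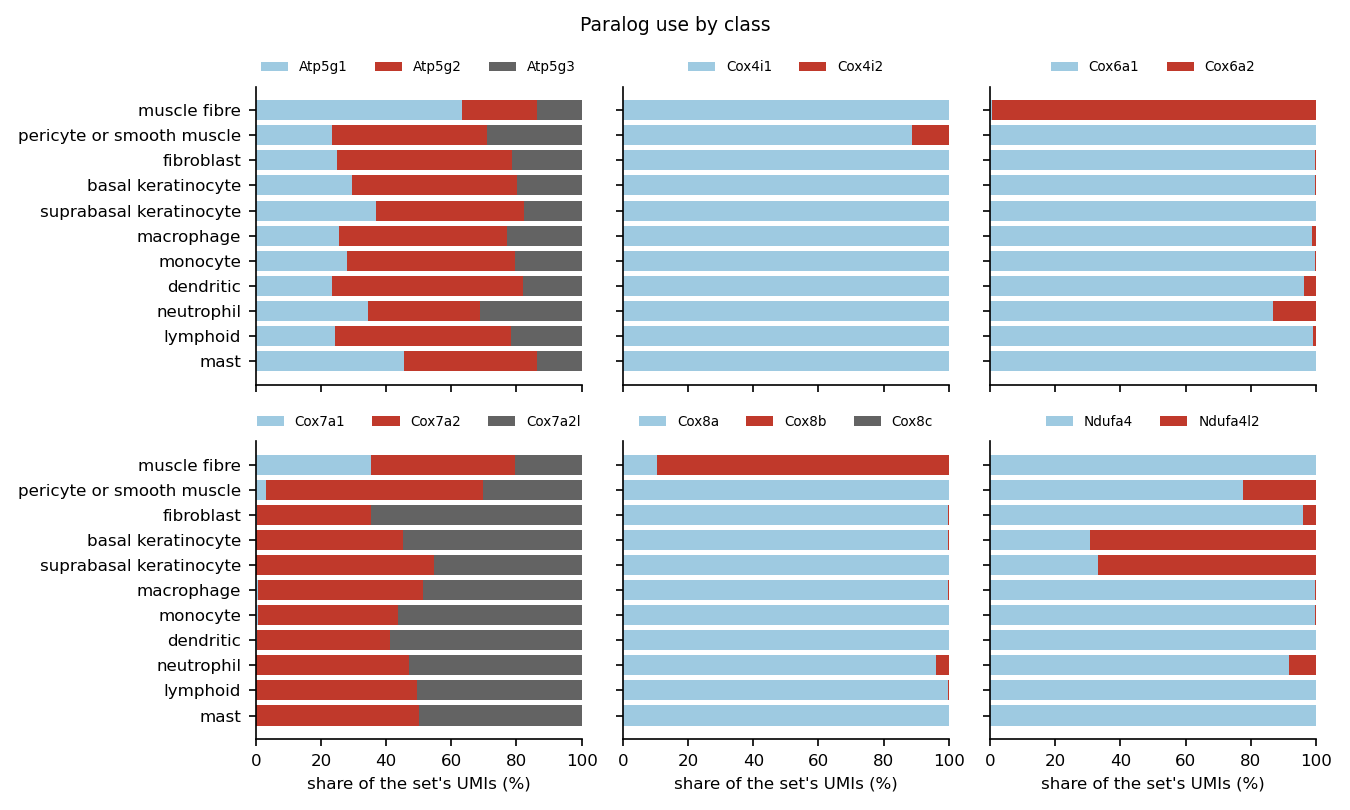
Bars give the share of a paralog set's UMIs in percent held by each gene, 1 bar per class and 1 panel per set. Cox6a2 and Cox8b fill 99.5% and 89.7% of their sets in muscle fibre barcodes, Ndufa4l2 fills 69.5% and 66.8% of its set in basal and suprabasal keratinocyte barcodes, and Cox4i2 reaches 11.3% in pericyte or smooth muscle barcodes.

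Paralog use also differed among the classes that are not muscle. Ndufa4l2, a paralog of Ndufa4 known to be raised by hypoxia, was at 422 CPM in basal keratinocyte and 603 CPM in suprabasal keratinocyte barcodes. It was at 12.2 CPM in fibroblast and 1.18 CPM in macrophage barcodes. In dendritic, lymphoid, mast and muscle fibre barcodes it had no UMI, and against all other gated barcodes it was at least 17.8-fold lower in muscle fibre barcodes, at a floor of 3 UMIs for the class. It held 69.5% (68.3 to 70.6) of Ndufa4 and Ndufa4l2 UMIs in basal and 66.8% in suprabasal keratinocyte barcodes, 22.4% (13.6 to 33.4) in pericyte or smooth muscle barcodes and 4.03% in fibroblast barcodes. It was seen in 613 of 972 basal keratinocyte barcodes, with a median of 2.29 UMIs per 10000, and in 12 of 989 macrophage barcodes, at median depths of 10246.5 and 9428 UMIs.

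Cox4i2, the form of subunit IV known from lung and from oxygen-sensing vascular cells, had 31 UMIs in the classes described, and 17 of them were in the 16 pericyte or smooth muscle barcodes. There it was at 190 CPM, against 0.275 CPM in fibroblast barcodes, was seen in 7 of 16 barcodes, and made up 11.3% (6.74 to 17.5) of Cox4i UMIs. Cox6b2, known as a testis form of subunit VIb, was at 38.1 CPM in dendritic barcodes, 4.78-fold (3.52 to 6.37) above all other gated barcodes, and 8.18% (6.17 to 10.6) of Cox6b UMIs there. It was seen in 33 of 119 dendritic, 285 of 3505 fibroblast and 39 of 989 macrophage barcodes.

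The mitochondrial members were lower together in muscle fibre barcodes, and further so in the 92. The folds below are on CPM and are not set against the median gene, which was lower too. Of all genes, 55.5% were over 2-fold lower in the 102 and 59.8% in the 92. In the 102, the oxidase subunits mt-Co1, mt-Co2 and mt-Co3 were 3.30-fold (3.04 to 3.60), 3.07-fold (2.80 to 3.37) and 3.02-fold (2.78 to 3.29) lower. In the 92 they were 7.49-fold (6.58 to 8.58), 6.20-fold (5.42 to 7.14) and 5.09-fold (4.55 to 5.71) lower. Of the complex I subunits, mt-Nd1 was 3.16-fold and mt-Nd4 3.03-fold lower, and in the 92 5.58-fold and 5.08-fold. mt-Atp6, a subunit of the proton channel, was 3.20-fold (2.93 to 3.50) lower, and 5.64-fold (5.003 to 6.38) in the 92. Of all mt- UMIs, mt-Co1 took 18.8% in the 102, 15.0% (13.2 to 16.9) in the 92 and 19.96% in the other gated barcodes. For mt-Co3 these shares were 19.2%, 20.7% (18.6 to 22.8) and 18.6%, and for mt-Cytb 9.46%, 11.8% (10.2 to 13.5) and 9.85%. Within the 92, then, mt-Co1 took a smaller part of mt- UMIs and mt-Cytb a larger one than in the other gated barcodes, by more than the counting intervals.

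Several mitochondrial members rest on few molecules or on shared sequence. mt-Nd6, the 1 member read from the other strand (chrM:13552-14070), had 1 UMI in muscle fibre barcodes, a ratio of 0.150 (0.00380 to 0.839). mt-Atp8 (chrM:7766-7969) had 10 UMIs there, a ratio of 0.691 (0.331 to 1.27), and overlaps mt-Atp6 (chrM:7927-8607) by 43 bases. mt-Nd4l (chrM:9877-10173) overlaps mt-Nd4 by 7 bases, and mt-Nd6 overlaps the end of mt-Nd5 by 14. Whether the counting used strand is not given in the sources used here. Without strand, reads from shared bases of opposite-strand pairs could not be told apart, as for mt-Nd6 with mt-Nd5. Cox6a2 is another case, since it lies whole within Itgad on the opposite strand. Strand would not separate same-strand pairs, such as mt-Atp8 with mt-Atp6 and mt-Nd4l with mt-Nd4. Among nuclear members, Ndufa13 overlaps Yjefn3 and Cox4i1 overlaps Gm20388 in this way, and others do too.

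Detection of single mitochondrial genes followed the same line. mt-Co1 was seen in 39 of 102 muscle fibre barcodes (30 of the 92), against 3423 of 3505 fibroblast and 968 of 972 basal keratinocyte barcodes. After thinning to 500 UMIs it was seen in 19.6% of muscle fibre, 59.0% of fibroblast, 86.9% of basal keratinocyte and 86.1% of macrophage barcodes.

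Other values were low in muscle fibre barcodes beside the mt- part. The nuclear RNA Malat1 was at 0 in 74 of the 102 barcodes and in 308 of the 6308 others. All 4 nuclear-retained RNAs listed were over 2-fold lower, as were all 12 genes of the dissociation stress list, with a median log2 ratio of -2.77, where 55.5% of all genes were and the median gene was at -1.25. In the 92 barcodes Malat1 had 18 UMIs in all. Spearman's rho between the mt- and Malat1 parts of single barcodes was 0.26 over the 102 and 0.03 over the 92. Low mt- barcodes were found in other classes too, with the limit of 0.2% of UMIs. There were 253 among fibroblast barcodes (7.22%), with a median Malat1 part of 0.0695% against 0.376% in the rest and a nuclear respiratory chain part of 1.57% against 1.36%. In suprabasal keratinocyte barcodes there were 30, with 10 mt- and 6 Malat1 UMIs in all, a nuclear respiratory chain part of 2.59% against 2.03%, and cytosolic ribosomal protein genes at 35.9% of UMIs against 26.7%. The 18 low neutrophil barcodes differed in this, with a median Malat1 part of 1.64% against 1.16%. The part that these RNAs and the depth of the barcodes have in the mt- result was not tested.

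Across barcodes the mt- and nuclear parts were inversely related in some classes and not in others. Spearman's rho was -0.25 over 3505 fibroblast, -0.31 over 972 basal keratinocyte, -0.52 over 247 suprabasal keratinocyte and -0.24 over 989 macrophage barcodes. Pearson's r was further from 0 in basal (-0.53) and suprabasal keratinocyte (-0.66) and macrophage barcodes (-0.40), and was -0.26 in fibroblast barcodes. The Spearman coefficient was -0.19 over 139 monocyte, -0.15 over 267 lymphoid, -0.06 over 22 mast and 0.01 over 119 dendritic barcodes, and positive over 32 neutrophil (0.31) and 16 pericyte or smooth muscle barcodes (0.23). It was -0.15 over the 102 muscle fibre barcodes and 0.07 over the 92, where Pearson's r was -0.32 and -0.03. These barcodes share 1 library, and both parts are shares of the same total.

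Over pooled UMIs of all depths, fibroblast barcodes had the lowest mt- share of the classes other than muscle. From 2000 to 5000 UMIs their share of 60.9% was above lymphoid (58.8%) and neutrophil barcodes (46.9%). The monocyte, macrophage and keratinocyte classes were higher in that bin. The nuclear part of fibroblast barcodes was not the lowest, and their mt- part was level with that of neutrophil barcodes. Their mt- part was 1.08% (1.080 to 1.087), and that of neutrophil barcodes 1.08% (1.02 to 1.14). Their nuclear part was 1.38%, above the 1.02% of neutrophil and 0.913% of mast barcodes. Against all other gated barcodes, with 19.5% of all genes over 2-fold higher and 24.3% over 2-fold lower, 0 of 92 nuclear members were higher and 8 lower, and 7 of 13 mt- members were over 2-fold lower. Their mt- median log2 ratio was -1.06 and their nuclear median -0.51, with all genes at -0.17. mt-Co1 was at 2080 CPM against 4892, 2.35-fold lower (2.33 to 2.37). Cox5a, a nuclear subunit of complex IV, was at 134 CPM in fibroblast barcodes and at 478 CPM in macrophage barcodes, where it was 2.42-fold (2.34 to 2.50) above all other gated barcodes.

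The mt- part of UMIs was 2.54% in basal and 2.37% in suprabasal keratinocyte barcodes and 2.53% in macrophage barcodes, below the 4.59% of pericyte or smooth muscle barcodes and above the other classes, and few nuclear members were past 2-fold. In basal keratinocyte barcodes 3 of 13 mt- members were over 2-fold higher (15% of all genes were) and none over 2-fold lower (29.3%), with an mt- median of 0.67 and a nuclear median of 0.20. Uqcrc1 was 2.65-fold (2.50 to 2.80) higher there. In macrophage barcodes 2 mt- members were over 2-fold higher (14.2% of all genes), mt-Co1 at 2.12-fold (2.10 to 2.14) and mt-Co2, against an mt- median of 0.72 and a nuclear median of 0.14. Suprabasal keratinocyte barcodes had no mt- member past 2-fold either way, with 11.4% of all genes higher and 36.4% lower. Of their nuclear members, 1 was higher, Ndufa4l2, and 4 were lower.

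The 3 remaining leukocyte classes of over 100 barcodes had no mt- member past 2-fold. In monocyte barcodes 1 nuclear member was over 2-fold higher (12.2% of all genes) and 6 lower (35.5%). The higher one was Ndufb1-ps, listed as a long noncoding RNA, at 400 CPM against 183, 2.18-fold (1.98 to 2.40). In dendritic barcodes 1 was higher, Cox6b2, and 7 lower, with 12.2% and 35.3% of all genes. In lymphoid barcodes 0 were higher and 7 lower, with 16.5% and 33.7% of all genes, and Atp5md, a small subunit of complex V, was 1.53-fold (1.37 to 1.71) higher.

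Members of both genomes were high in pericyte or smooth muscle barcodes, and by smaller amounts both medians were positive in basal keratinocyte and macrophage barcodes. In each complex that both genomes build, suprabasal keratinocyte barcodes too had more summed CPM of both parts than all gated barcodes except muscle fibre. For complex IV their nuclear CPM was 1.33-fold higher and their mt- CPM was 12487 against 8778. In pericyte or smooth muscle barcodes 48 of 92 nuclear members were over 2-fold higher, where 34.6% of all genes were, and 3 were lower (19.2%). Of the mt- members 11 of 13 were over 2-fold higher. mt-Cytb was at 7784 CPM against 1582, 4.92-fold (4.56 to 5.30), and took 17.0% of mt- UMIs in these barcodes against 9.85% in the gated barcodes that are not muscle fibre. mt-Nd4 was 4.04-fold (3.60 to 4.53) higher, and mt-Co1 only 1.67-fold (1.52 to 1.82). The class held 16 barcodes and a mt- part between 1.51% and 14.9% of UMIs.

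Neutrophil and mast barcodes were shallow, with medians of 2487.5 and 1686.5 UMIs. In neutrophil barcodes 34 of 92 nuclear members were over 2-fold lower (26.7% of all genes) and 1 was higher (29.5%), Ndufaf7 on 8 UMIs. Their nuclear part was 1.02% of UMIs (0.957 to 1.08). In mast barcodes 37 nuclear members were over 2-fold lower (17.8% of all genes) and 3 higher (42.9%), on 485 nuclear UMIs in all. The 3 were Ndufaf5 on 1 UMI, Cox6b2 on 2 and Ndufaf8 on 4, with intervals that include no difference. Without the 0.5 UMIs added to each side, Ndufaf5 and Ndufaf8 were at 1.88-fold. In so small a class this addition raises the ratios of weakly detected genes, and with them the share of all genes called higher. Ndufaf1, for example, had no UMI and a log2 ratio of 0.29. Cox5a had no UMI in mast barcodes, which at a floor of 3 UMIs allows up to 56.5 CPM, against 241 CPM in all other gated barcodes.

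The wider pathway in muscle fibre barcodes did not move as 1 block. The counts of each list below stand beside 11.6% of all genes over 2-fold higher, 55.5% over 2-fold lower and a median gene at -1.25 on the log2 scale. Of the 10 carriers and electron entry genes 7 were over 2-fold higher, and the 2 adenine nucleotide carriers went opposite ways: Slc25a4, the muscle form, was at 8057 CPM against 236 and Slc25a5 at 56.7 against 244. The phosphate carrier Slc25a3 was at 988 against 347. Of the 13 citrate cycle genes 9 were over 2-fold higher and none lower, with Mdh2 (malate dehydrogenase) at 662 CPM against 107. Of the 78 mitochondrial ribosome genes 54 were higher and none over 2-fold lower, while of the 85 measured cytosolic ribosome genes 1 was higher and 29 lower, a smaller share lower than among all genes, with a median log2 ratio of -0.90. Of the 17 glycolysis genes 11 were higher and 5 lower.

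The further lists given here stand beside the same shares of all genes. Of the 27 assembly factors outside the symbol rule 12 were over 2-fold higher and 4 lower, with Cox14 at 388 CPM against 82.5 and Cox17, a copper chaperone, at 563 against 75.3. Of the 14 genes of mitochondrial transcription and RNA upkeep 3 were higher and 3 lower, with a median log2 ratio of -0.50, above the median gene. In the 92 barcodes 5 of the 14 were higher and 3 lower. Slirp, a stabiliser of mitochondrial mRNA, had 72 UMIs, at 128 CPM against 65.3. Of the 9 nuclear regulators measured 3 were higher and 3 lower, and in the 92 barcodes 3 and 5, where 11% of all genes were higher and 59.8% lower. Yy1 was at 30.1 CPM against 88.6 and Nrf1 at 19.5 against 44.5. Ppargc1a, the coactivator of mitochondrial biogenesis, named after its values were seen, had 8 UMIs and was at 14.2 CPM against 2.15. Of the 6 antioxidant and uncoupling genes measured 4 were higher and 1 lower, and of the erythrocyte list only Hba-a1 was measured, at 0 in muscle fibre barcodes.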

How the data were processed

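The authors deposited raw UMI counts, 1 row per gene and 1 column per barcode. The submitters' processing notes name Cell Ranger and mm10; the version, cell calling and use of strand are not given in the sources used here. The matrix pools control and depleted skin in 1 library. From these counts, UMIs were summed per class and divided by the class total (CPM). Ratios compared a class with all other gated barcodes after adding 0.5 UMIs to each side, over genes with 50 UMIs or more, and past 2-fold counted as higher or lower. Intervals are exact (Poisson, conditional binomial, Clopper-Pearson); UMIs are molecules, not replicates. Classes required 50% of a marker list; barcodes passing 2 lineages (626) or tied within one (142) were left out, 935 passed none, and 14 lay in classes under 10.

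The members, marker lists and gene lists were chosen with earlier results of these data known. Named genes are all mt- rows, the 3 nuclear members of most UMIs per complex, the isoform sets, the 5 highest and lowest ratios in muscle fibre and the 2 highest and lowest in other classes, and the 3 of most UMIs in other lists; a few others were named after their values were seen (Ndufs1, Ndufc1, Cox17, Ppargc1a and members called in counts). Gene positions come from GENCODE M21 and promoters from RefSeq; the NRF1 letters searched were shortened from a longer form after its counts were seen, and overlapping matches were each counted. Scrublet (scanpy 1.11.5) marked 305 barcodes (3.75%) as doublets, 1 in the muscle fibre class; they were kept. The ratio script was tested on simulated data. Python 3.11.15, NumPy 2.4.6, SciPy 1.17.1 and pandas 2.3.3 were used.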

Additional observations from a re-analysis of the deposited data

How the results depend on the processing

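Every alternative left the mt- share of respiratory chain UMIs in muscle fibre barcodes at 9.13% or less and that in fibroblast, basal keratinocyte, macrophage and lymphoid barcodes at 42.47% or more. In muscle fibre barcodes the share was 3.89% with at most 10% mt- UMIs, 2.69% in barcodes with 10% or more marker UMIs, 7.58% between 2000 and 10000 UMIs, 9.13% with every barcode weighing the same, and 3.77% under the stricter marker gate. Fibroblast barcodes gave 43.68%, 52.04%, 42.47% and 43.84% under the same alternatives (the marker UMI limit does not apply), 44.21% with no mt- maximum and 43.81% without doublets. Basal keratinocyte barcodes gave 57.27%, 62.69%, 58.82% and 56.74%. Macrophage barcodes gave 56.3%, 65.45% and 57.69% under the mt- limit, the depth range and the stricter gate, and 58.07% with no mt- maximum. Lymphoid barcodes gave 58.17% in the depth range, 55.67% with equal weights and 59.11% under the stricter gate. The nuclear part of muscle fibre barcodes was 10.4% in those with 10% or more marker UMIs, 9.18% in the depth range, 9.49% with equal weights and 9.56% under the stricter gate, and that of fibroblast barcodes 1.37%, 1.37% and 1.39% in the last 3. The cause was not tested.

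Of the counts past 2-fold in muscle fibre barcodes, 1 moved by over 1.5 times: relative to the median gene, 0 mt- members were over 2-fold lower. There Cox8a was at 0.11 and mt-Nd5 at 0.17 on the log2 scale, the reverse of their sign, because the median gene was at -1.25. Over 605 ratios of 55 named members under the alternatives, 597 had the sign of the main value, and 155 moved by over 0.2 on the log2 scale, of which 53 were relative to the median gene, 34 against fibroblast barcodes and 14 in barcodes with 10% or more marker UMIs. Of 105 further nuclear parts and mt- shares of single classes, 46 fell outside the interval of the main value. No paired analysis was possible because there is 1 RNA library and no condition for a barcode. The limits are that barcodes are not replicates, that the neutrophil, mast and pericyte or smooth muscle classes rest on few UMIs, and that a class is a marker list passed and not an annotation.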
